A study of Rattus norvegicus with 35 samples.

Results

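The genes described here belong to the folding, quality control and stress signalling system of the endoplasmic reticulum (ER), and they were followed in neonatal rat ventricular myocytes (NRVMs) under cyclic mechanical stretch. A list of 36 genes was used, and 34 of them had at least 1 probe set whose annotation names that gene alone. Ern1, the stress sensor that splices Xbp1 mRNA, and Derl3, a channel component of ER-associated degradation, were not analysed here. The 34 genes were read by 50 probe sets, and the brightest probe set by mean log2 intensity over all 35 arrays stood for each gene, out of 14217 genes and 31042 probe sets in all. The cells were prepared from Sprague-Dawley rats 2 to 4 days old and carried no genetic change. Stretched cells were kept on flexible-bottomed plates under cyclic vacuum suction for 1, 4, 12, 24 or 48 h, and control cells were not stretched. Each of the 7 groups held 5 arrays. The first set of arrays holds the 1, 4 and 12 h groups with their own control, and the second set holds the 24 and 48 h groups with another control, so every comparison stayed within a set. Non-myocytes were depleted by plating the digested ventricles before the myocytes were seeded, and the cultures are enriched rather than pure. The methods call the 5 samples of a group biological replicates and say that, within a culture, the groups began to be stretched at different times and ended together. The labels do not tie a replicate number to a culture, so p-values measure the spread between these arrays.

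Proteins that enter the ER are folded by luminal chaperones such as BiP (Hspa5), by the lectin chaperones calnexin and calreticulin, and by disulfide isomerases. Proteins that fail to fold are returned to the cytosol and degraded, a route called ER-associated degradation. When unfolded proteins accumulate, the sensors IRE1 (Ern1), ATF6 and PERK (Eif2ak3) start the unfolded protein response, in which ATF6 and spliced XBP1 raise chaperone transcription and PERK slows translation through eIF2 and raises ATF4. In the heart this system serves secreted, membrane and calcium-handling proteins.

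Several of these genes carry the ER stress element (ERSE) in their promoters, the site through which ATF6 and the factor NF-Y are known to act on chaperone genes. It was searched for on both strands as CCAAT and CCACG separated by 9 bases, in the window from 250 bases before to 50 bases after the gene start. Of the 34 measured genes, 26 had such a window in RefSeq (build GRCr8), and 8 of these 26 (30.8%) held an ERSE, against 21 of 27457 genes (0.0765%) with a window of the same length. The element is known from chaperone genes like those listed, so an excess was built into the choice of list and element and is no separate finding. Pieces of 3 promoters are shown because these genes differ in their response to stretch, with the ERSE in capitals, read 5′ to 3′ along the gene.
Hspa5: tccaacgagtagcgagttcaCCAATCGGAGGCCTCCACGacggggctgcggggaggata
Creld2: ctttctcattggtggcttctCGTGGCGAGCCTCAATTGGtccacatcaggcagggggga
Ero1b: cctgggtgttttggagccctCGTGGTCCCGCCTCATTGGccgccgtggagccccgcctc
The Hspa5 piece lies at chr3:38452953-38453011 on the plus strand, and its ERSE spans bases 43 to 25 before the start. The Creld2 piece lies at chr7:121789219-121789277 and the Ero1b piece at chr17:92941438-92941496, both on the plus strand and with the ERSE on the opposite strand of the gene. The other ERSE holders were Calr, Canx, Dnajc3, Xbp1 and Hsp90b1, the last with 2 copies. A related element, ERSE-II (ATTGG and CCACG separated by 1 base), was found in Dnajb11, Herpud1 and Hyou1, which is 11.5% of the 26 genes against 0.0619% of all genes. The core of the unfolded protein response element, TGACGTGG, was found in Hyou1 and Vcp (7.7% against 0.681%). The ERSE and ERSE-II contain a CCAAT box and the letters CCACG, which alone were present in 88.5% and 80.8% of the 26 windows, against 39.6% and 34.1% of all windows. The amino acid response element TGATGNAAT, known from ATF4 targets, was in none of the 26 windows, against 1.14% of all. A match in these letters is a description of the sequence and does not show that a factor was bound in these cells.

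The arrays were alike in overall brightness, with median intensities between 88.7 and 95.8, and any 2 arrays of a group correlated at 0.9898 to 0.9983 over all probe sets on the log2 scale. The marker genes of cardiomyocytes were bright, with a mean log2 intensity over 19 of 20 listed markers between 12.83 and 13.16 on every array, and the 10 fibroblast markers were also bright (11.92 to 12.43). Endothelial markers were dimmer (7.36 to 8.51 over 7 of 8), as were macrophage markers (5.73 to 7.53 over 9). In bulk RNA, fewer cells of a type and less RNA per cell cannot be told apart. Fibroblast markers were mostly lower under stretch, with 4, 8, 8, 2 and 7 of 10 called lower at 1, 4, 12, 24 and 48 h and Col1a1 alone called higher, at 24 h. Their mean was 12.09 to 12.21 in the 1 h arrays and 12.24 to 12.34 in the control arrays. Cardiomyocyte markers were called lower in 5, 6, 8, 7 and 10 of 19 and higher in 3, 3, 2, 4 and 4 at the same times. Endothelial markers were lower in 0, 4, 4, 2 and 6 of 7 and macrophage markers in 0, 2, 3, 3 and 7 of 9, with no marker of either called higher. Smooth muscle and pericyte markers were higher in 3, 4, 1, 4 and 4 of 8 and lower in 0, 1, 1, 0 and 1. The part of these markers in the results below was not tested. The first array of the 24 h group stood apart within its group: the mean log2 intensity of the 7 luminal chaperones was 10.45 there and 10.73 to 10.83 on the other 24 h arrays, against 10.33 to 10.51 in the control. The genes described at 24 h are therefore also given without it. For genes that were low on this array, that choice itself raises the difference, so those values are no separate support.

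At 1 h the called genes were all lower than in control cells, and at 24 h they were all higher. A gene was called when its adjusted p was under 0.05 in limma, with Benjamini-Hochberg adjustment over all 31042 probe sets. At 1 h, 11 genes were lower than in control cells (32.4% of the 34, where 8.3% of all genes were lower) and 0 were higher (8.24% of all genes). In limma without adjustment, Sec61b alone would have counted as higher at 1 h (0.1 on the log2 scale, adjusted p = 0.179). The median difference of the 34 genes was -0.05, against 0.002 over all genes. At 4 h, 6 were higher and 7 lower (17.6% and 20.6%), close to the 17.1% and 19.2% of all genes, or 6 higher and 4 lower with each array centred on its median. At 12 h, 9 were higher and 5 lower (26.5% and 14.7%, against 19.4% and 19.7% of all genes), or 14 and 3 with centred arrays and 9 and 8 after quantile normalization. At 24 h, 14 genes were higher (41.2%, against 13.5%) and 0 lower (10.1% of all genes were lower), with 0 lower also at an unadjusted p under 0.05 in limma, and the median difference was 0.17, against 0.03 over all genes. At 48 h, 11 were higher and 2 lower (32.4% and 5.88%, against 22.5% and 18.4%), or 13 and 0 with centred arrays.

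**Figure D1:**
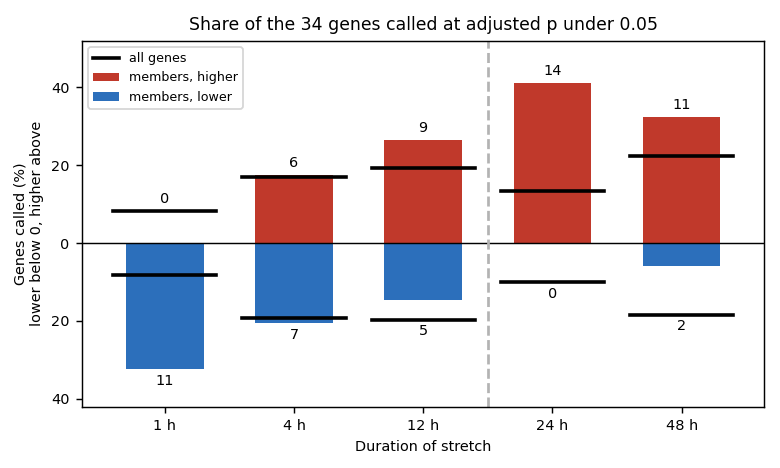
Share of the 34 ER genes called higher (upward bars) or lower (downward bars) than control at each duration of stretch, in percent, with the number of genes printed at each bar. Horizontal black lines give the share of all 14217 genes called in the same direction, and the dashed line separates the 2 sets of arrays. The lower share at 1 h (11 genes) and the higher share at 24 h (14 genes) lie farthest from the lines of all genes.

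All of these differences were small. Sdf2l1 at 24 h (1.56-fold) was the only member past both the adjusted p and a 1.5-fold difference at any time, where 1.32%, 3.57%, 4.09%, 3.32% and 9.09% of all genes passed both at 1, 4, 12, 24 and 48 h.

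**Figure D2:**
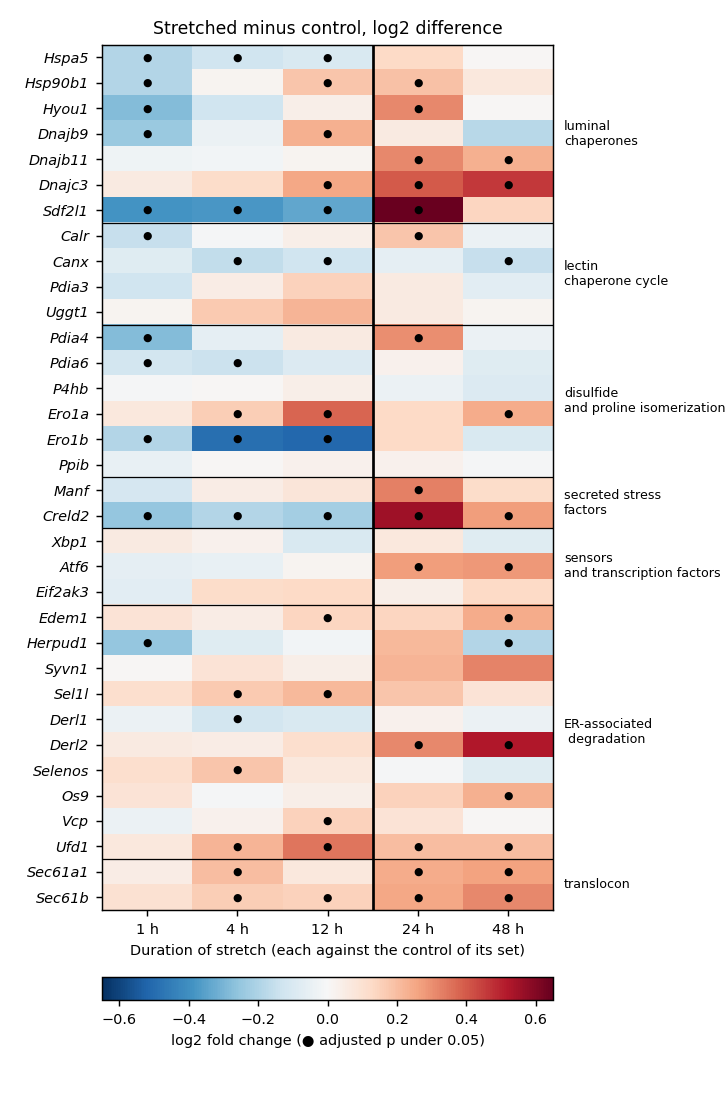
Log2 fold change of each of the 34 genes (rows, grouped by role) at each duration of stretch (columns), stretched minus control of the same set, with red for higher and blue for lower in stretched cells. Black dots mark an adjusted p under 0.05, and the thick vertical line separates the 2 sets of arrays. At 1 h, 5 of the 7 luminal chaperone rows are blue with a dot, and at 24 h 5 of the 7 are red with a dot.

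After 1 h of stretch, the lower genes were mainly chaperones and disulfide isomerases. They were 5 of 7 luminal chaperones (Sdf2l1, Hyou1, Dnajb9, Hspa5 and Hsp90b1), Calr of the 4 genes of the lectin chaperone cycle, 3 of 6 genes of disulfide formation and proline isomerization (Pdia4, Ero1b and Pdia6), Creld2 and Herpud1. Of the 10 measured genes of ER-associated degradation, Herpud1 alone was called, and neither of the 2 translocon genes was. Sdf2l1, a component of a BiP co-chaperone complex, had log2 intensities of 8.69, 8.78, 8.84, 8.72 and 8.85 after 1 h, against 9.24, 9.21, 9.04, 8.96 and 9.37 in control cells. The groups did not overlap, and the difference was -0.39 ± 0.064 (SE, n = 5 each, 0.765-fold, adjusted p = 0.000243 in limma). Herpud1, which anchors the degradation complex in the ER membrane and is a known target of all 3 sensors, had 10.28, 10.24, 10.28, 10.24 and 10.23 after 1 h, against 10.53, 10.56, 10.5, 10.36 and 10.55 in control cells. Its 5 stretched arrays lay within 0.05 of each other and below every control array, and the difference was -0.25 ± 0.043 (adjusted p = 0.0004). Hyou1, a large chaperone that also exchanges the nucleotide of BiP, had 8.95, 9.02, 9, 8.99 and 9 after 1 h, against 9.42, 9.35, 9.16, 9.19 and 9.26 in control cells. Pdia4, a disulfide isomerase, had 8.85, 8.73, 8.86, 8.75 and 8.8 after 1 h, against 9.22, 9.25, 9.1, 8.94 and 8.91 in control cells. The groups of both genes were separate, with differences of -0.28 each (SE 0.078 and 0.072, adjusted p = 0.0165 for Hyou1 and 0.00983 for Pdia4).

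Creld2, a secreted protein induced by ER stress in other cells, had 9.34, 9.33, 9.27, 9.37 and 9.46 after 1 h, against 9.7, 9.67, 9.55, 9.42 and 9.7 in control cells. A single control array lay within the stretched range, and the difference was -0.25 ± 0.063 (adjusted p = 0.00838). Hspa5 is described in addition to the genes with the largest differences, because it encodes BiP, the chaperone that holds the sensors inactive. It had 12.66, 12.58, 12.59, 12.64 and 12.58 after 1 h, against 12.83, 12.87, 12.76, 12.74 and 12.8 in control cells. The 5 stretched arrays were all below the control arrays, by 0.19 ± 0.038 on average (0.876-fold, adjusted p = 0.00162). The remaining lower genes at 1 h had differences between -0.24 (Dnajb9) and -0.12 (Pdia6). The count of 11 was 7 without the second control array, and 7 when each array was centred on its own median. The calls of Hyou1 (adjusted p = 0.054 without control replicate 1) and Dnajb9 (0.0573 without the second 1 h array) each rested on 1 array. Those of Hsp90b1, Calr, Pdia6 and Ero1b were lost without any 1 of 2, 3, 7 and 13 arrays, with adjusted p up to 0.0518 and 0.0888 for Hsp90b1 and Pdia6 without control replicate 2, and up to 0.0601 and 0.105 for Calr and Ero1b without the first 1 h array.

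**Figure D3:**
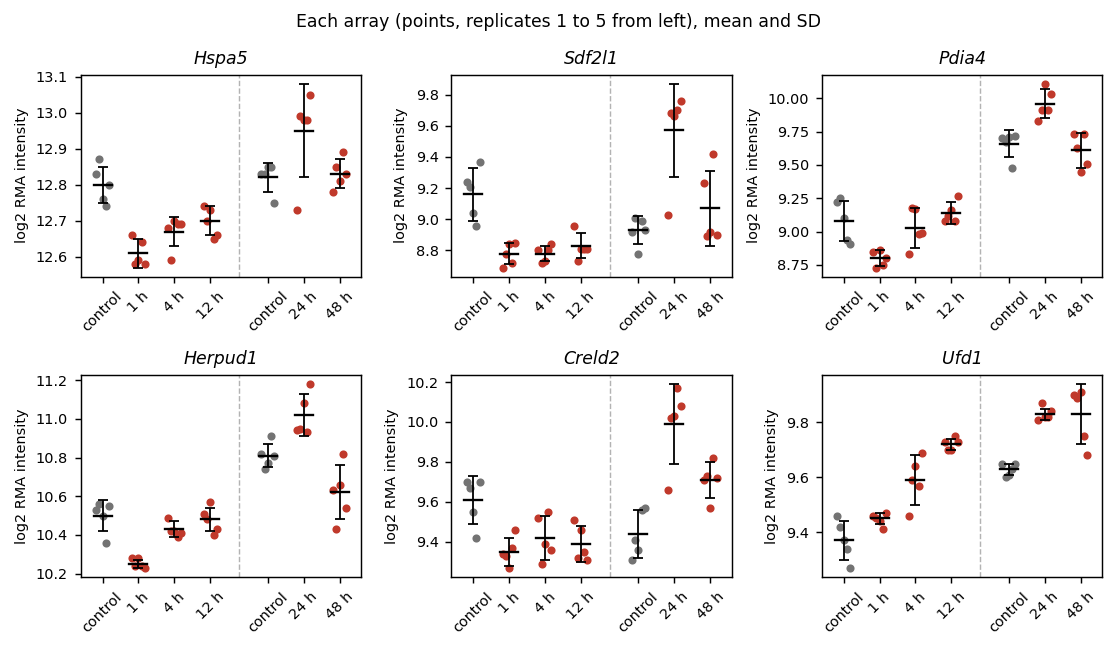
Log2 intensity of 6 genes on each array (points, 5 per group) with the group mean (horizontal bar) and SD (error bar), grey for control and red for stretched cells, with the duration of stretch along the horizontal axis and the second set right of the dashed line. All 6 genes except Ufd1 have their 1 h points low against the control of the first set, and all 6 have most 24 h points above the control of the second set.

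Part of the decrease was no longer seen at 4 and 12 h. Between 1 and 4 h, 8 of the 34 genes became higher (8.64% of all genes did) and 1 lower (8.89%). The 8 were Hsp90b1, Calr, Pdia4, Manf, Eif2ak3, Herpud1, Ufd1 and Sec61a1, with differences of 0.13 to 0.23, and the 1 was Ero1b. Between 1 and 12 h, 13 became higher (13.2% of all genes) and 2 lower (13.0% of all genes). Between 4 and 12 h, 2 became higher and 2 lower, close to the shares of all genes (5.85% and 6.22%). The largest of the changes from 1 to 12 h was in Dnajb9, a DnaJ co-chaperone of BiP that acts on misfolded proteins and on IRE1, at 0.47 ± 0.068 (adjusted p = 2.82e-05). Its log2 intensities were 9.8, 10.02, 10.02, 9.79 and 9.89 after 12 h, against 9.7, 9.73, 9.66, 9.65 and 9.63 in control cells. It was thus lower than control at 1 h and higher at 12 h (0.23 ± 0.068, adjusted p = 0.0109), with no overlap between the groups at either time. Hsp90b1 (GRP94, the ER member of the HSP90 family) took the same course, at -0.19 ± 0.052 after 1 h and 0.18 ± 0.052 after 12 h (adjusted p = 0.0175 and 0.0105).

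Sdf2l1, Creld2, Ero1b and Hspa5 were lower at 1 h and still lower at 4 and 12 h. Sdf2l1 was 8.8, 8.72, 8.73, 8.8 and 8.84 after 4 h and 8.96, 8.73, 8.81, 8.81 and 8.81 after 12 h, against the control values given above. Its difference was -0.38 at 4 h and -0.34 at 12 h (SE 0.064 each, adjusted p = 9.67e-05 and 0.000294). Creld2 was 9.52, 9.29, 9.39, 9.55 and 9.36 after 4 h and 9.51, 9.32, 9.46, 9.35 and 9.31 after 12 h, against 9.7, 9.67, 9.55, 9.42 and 9.7 in control cells. These groups overlapped with the control at both times, and the differences were -0.19 and -0.22 (SE 0.063 each, adjusted p = 0.0306 and 0.01). The call of Creld2 at 4 h was lost without any 1 of 6 arrays (adjusted p up to 0.0863 without the second 4 h array). Hspa5 was 0.13 ± 0.038 below control at 4 h (12.67 against 12.8 on average) and 0.1 ± 0.038 below at 12 h (12.7 against 12.8; adjusted p = 0.0122 and 0.0413), and the 12 h call was lost without any 1 of 6 arrays (up to 0.12 without control replicate 2). Both calls were lost with the stretched group and its control alone (adjusted p = 0.0512 and 0.0672). They were also lost with arrays centred on the median (-0.11 and -0.07, adjusted p = 0.0539 and 0.206). With a replicate block the 12 h call was lost too (0.0594).

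The 2 oxidases that recharge the disulfide isomerases moved in opposite directions. Ero1b had 7.81, 7.75, 7.61, 7.43 and 7.7 after 4 h, against 8.13, 8.19, 8.13, 8.21 and 8.1 in control cells. After 12 h it had 7.79, 7.61, 7.7, 7.52 and 7.59. Every stretched array at both times was below every control array, with differences of -0.49 and -0.51 (SE 0.063 each, 0.712- and 0.702-fold, adjusted p = 4.31e-06 and 2.12e-06), the largest decreases among the 34 genes in the first set. Ero1a, which is known to respond to low oxygen as well as to ER stress, had 9.21, 9.24, 9.27, 9.19 and 9.22 after 12 h, against 8.8, 8.83, 8.88, 8.88 and 8.84 in control cells. The groups were far apart for their spread, with a difference of 0.38 ± 0.058 (1.3-fold, adjusted p = 2.75e-05). At 4 h Ero1a was 0.16 ± 0.058 above control (adjusted p = 0.0363), but 1 array of 5 was high (9.26, with the others at 8.89 to 8.99) and the call was lost without it (0.107). Both differences rest on the brightest probe set of each gene. At 12 h the second, dimmer probe set gave 0.18 ± 0.109 for Ero1a and -0.02 ± 0.083 for Ero1b (adjusted p = 0.239 and 0.923), and at 4 h that of Ero1b gave 0 ± 0.083 (adjusted p = 0.998). The second probe set of Ero1b had a mean log2 intensity of only 3.76, against 7.95 for the brightest. RMA compresses differences of dim probe sets, so it can hardly show whether Ero1b fell.

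Most other genes that were higher at 4 or 12 h serve degradation and the translocon. Ufd1, a cofactor of the ATPase Vcp that draws proteins out of the ER membrane, had 9.46, 9.59, 9.64, 9.57 and 9.69 after 4 h, against 9.46, 9.42, 9.37, 9.34 and 9.27 in control cells. After 12 h it had 9.73, 9.7, 9.7, 9.75 and 9.73. The 12 h arrays were all above every control array, by 0.35 ± 0.044 on average (1.28-fold, adjusted p = 2.34e-06), and the 4 h difference was 0.22 ± 0.044 (adjusted p = 0.000574). A second probe set of Ufd1 gave 0.28 ± 0.049 at 4 h and 0.42 ± 0.049 at 12 h. Sec61a1, the channel of the translocon, had 10.86, 10.98, 10.95, 10.97 and 10.96 after 4 h, against 10.73, 10.79, 10.77, 10.72 and 10.72 in control cells. It was 0.2 ± 0.039 above control at 4 h with no overlap (adjusted p = 0.000374) and 0.07 ± 0.039 at 12 h (adjusted p = 0.163), and its partner Sec61b was higher at both times (0.16 and 0.15, SE 0.046 each). After quantile normalization Sec61b was not called at 4 h (0.11, adjusted p = 0.0719) or at 12 h (0.1, 0.107). A further probe set of Sec61a1 gave 0.47 ± 0.1 at 4 h and 0.42 ± 0.1 at 12 h (adjusted p = 0.000952 and 0.00227 in limma). Its dimmest probe set gave -0.03 and -0.04 (SE 0.063 each) and was not called.

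Sel1l, the scaffold of the HRD1 ubiquitin ligase, had 7.88, 7.89, 8.1, 7.9 and 8.03 after 4 h, against 7.8, 7.77, 7.85, 7.7 and 7.82 in control cells. The groups did not overlap, and the difference was 0.17 ± 0.053 (adjusted p = 0.0173, but 0.0628 without the third 4 h array and 0.0541 without control replicate 4). At 12 h Sel1l was higher by 0.21 ± 0.053 (adjusted p = 0.0036). Selenos, a selenoprotein of the same membrane complex, had 10.8, 10.85, 10.89, 10.95 and 11.03 after 4 h, against 10.72, 10.7, 10.7, 10.67 and 10.81 in control cells, a difference of 0.18 ± 0.055 with 1 control array inside the stretched range (adjusted p = 0.0146). Dnajc3, a co-chaperone that also restrains PERK, had 9.07, 8.94, 9.07, 9.1 and 8.95 after 12 h, against 8.78, 8.87, 8.73, 8.71 and 8.79 in control cells. It was higher by 0.25 ± 0.054 with no overlap (adjusted p = 0.00112). Vcp and Edem1, a lectin that passes misfolded glycoproteins on to degradation, were also higher at 12 h (0.15 ± 0.039 and 0.14 ± 0.048), and the call of Edem1 was lost without any 1 of 3 arrays (up to 0.0768 without the second 12 h array). Further, dimmer probe sets of Edem1 gave larger differences at 12 h, 0.36 ± 0.077 and 0.76 ± 0.103 (adjusted p = 0.000869 and 6.67e-06 in limma).

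Calnexin could not be given a single direction. On its brightest probe set, Canx had 12.13, 12.14, 12.04, 12.06 and 12.1 after 4 h, against 12.28, 12.28, 12.26, 12.23 and 12.21 in control cells, which is a difference of -0.16 ± 0.04 (adjusted p = 0.00382). After 12 h the same probe set had 12.14, 12.05, 12.24, 12.08 and 12.08, with 1 array inside the control range, and a difference of -0.13 ± 0.04 (adjusted p = 0.0115). The 2 other probe sets of Canx gave 0.63 ± 0.101 and 0.3 ± 0.052 at 12 h (adjusted p = 4.27e-05 and 0.000105), that is, higher in stretched cells. Derl1, a channel component of degradation, behaved in the same way at 4 h, with -0.12 ± 0.04 on the brightest probe set (adjusted p = 0.0222, but 0.0608 without the fifth 4 h array and 0.0503 without the third) and 0.16 ± 0.041 on another (adjusted p = 0.0046). What distinguishes these probe sets was not tested. Over the 12 genes with more than 1 probe set, 35 values of the further probe sets stood beside a call of the brightest. Of these, 6 were called the same way, 4 the other way and 25 not called. Of the 25, 15 had the same sign as the call and the rest did not. Some of the uncalled values came from dim probe sets, with mean log2 intensities of 3.76 (Ero1b), 5.27 (Atf6) and 5.86 (Sec61a1).

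At 24 h, 14 genes were higher than in control cells. They were 5 of 7 luminal chaperones (Sdf2l1, Dnajc3, Hyou1, Dnajb11 and Hsp90b1), Calr, Pdia4, both secreted stress factors (Creld2 and Manf), Atf6, both translocon genes, and Derl2 and Ufd1 of the degradation genes. Sdf2l1 had 9.03, 9.68, 9.66, 9.7 and 9.76 after 24 h, against 8.92, 9.01, 8.78, 8.99 and 8.93 in control cells. The first array was only just above the control range and the other 4 far above it, and the difference was 0.64 ± 0.131 (1.56-fold, adjusted p = 0.0026), or 0.77 without the first array (7.35e-05). Creld2 had 9.66, 10.02, 10.03, 10.17 and 10.08 after 24 h, against 9.31, 9.41, 9.36, 9.56 and 9.57 in control cells. The same array was the lowest, all 5 were above every control array, and the difference was 0.55 ± 0.085 (1.47-fold, adjusted p = 0.000305). Dnajc3 had 9.15, 9.31, 9.28, 9.49 and 9.38 after 24 h, against 8.94, 8.92, 8.68, 9.16 and 8.91 in control cells, a difference of 0.4 ± 0.077 (adjusted p = 0.00166) with a slight overlap.

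Manf, a secreted factor held in the ER lumen by BiP, had 11.5, 11.5, 11.6, 11.6 and 11.6 after 24 h, against 11.21, 11.14, 11.31, 11.13 and 11.38 in control cells. The groups were separate, with a difference of 0.33 ± 0.057 (adjusted p = 0.000791). Dnajb11, Hyou1, Derl2 and Pdia4 were higher by 0.31, 0.31, 0.31 and 0.3 (1.23- to 1.24-fold), each with no overlap between the groups. The second probe sets of Hyou1 and Derl2 gave 0.07 ± 0.208 and 0.02 ± 0.074, neither of them called. With the mean of all probe sets of a gene, the 24 h calls of Hyou1 (0.19, adjusted p = 0.198), Sec61a1 (0.12, 0.312) and Ufd1 (0.17, 0.101) were lost. Hspa5 had 12.73, 12.99, 12.98, 12.98 and 13.05 after 24 h, against 12.83, 12.83, 12.85, 12.85 and 12.75 in control cells. The first array was below every control array and the other 4 above all of them, and with all 5 the difference of 0.13 ± 0.057 was not called (adjusted p = 0.141). Herpud1 was above control on all 5 arrays by 0.21 ± 0.071 but missed the threshold (adjusted p = 0.0527). The first 24 h array was picked because luminal chaperones were low on it, so leaving it out was bound to raise their differences. Without the first 24 h array, 16 of the 34 genes were higher at 24 h and 0 lower, with Hspa5 (0.18, adjusted p = 0.00936) and Edem1 (0.19, 0.0211) added to the 14. Creld2 was then higher by 0.64, Dnajc3 by 0.44, Dnajb11 and Derl2 by 0.35, and Hyou1, Pdia4 and Manf by 0.34. Herpud1 still missed the threshold (0.23, adjusted p = 0.0502). The calls of Hsp90b1, Calr and Atf6 at 24 h depended on single arrays (adjusted p up to 0.0581, 0.0535 and 0.0564 without control replicate 1 for the first 2 and the second 24 h array for Atf6). Smooth muscle and pericyte markers were also higher at 24 h in 4 of 8. Their mean was 8.89 on the first 24 h array and 9.22 to 9.53 on the other 4, against 8.56 to 9.04 in the control. At 48 h it was 9.27 to 9.48. At 1 h, 3 of these 8 markers were higher and 0 lower, while 11 of the 34 genes were lower. The part of these markers in the result was not tested.

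Some of the genes that were higher at 24 h were lower again at 48 h. Between 24 and 48 h, 6 of the 34 genes became lower (5.73% of all genes did) and 1 higher, close to the share of all genes (2.97%). The 6 were Sdf2l1 (-0.49), Herpud1 (-0.4), Pdia4 (-0.35), Hyou1 (-0.3), Calr (-0.22) and Manf (-0.21), with adjusted p between 0.00271 and 0.0391. Sdf2l1 had 9.23, 8.89, 8.92, 9.42 and 8.9 after 48 h, so 3 arrays were within the control range of 8.78 to 9.01, and its difference from control was 0.14 ± 0.131 (adjusted p = 0.434). Herpud1 had 10.63, 10.43, 10.66, 10.82 and 10.54 after 48 h, against 10.82, 10.74, 10.77, 10.91 and 10.81 in control cells. It was lower than control by 0.19 ± 0.071 (adjusted p = 0.0452), a call that was lost without any 1 of 10 arrays (up to 0.12 without the second 48 h array). Canx on its brightest probe set was also lower (-0.15 ± 0.047, adjusted p = 0.018), with 12.17, 12.07, 12.19, 12.19 and 12.15 after 48 h, against 12.29, 12.32, 12.26, 12.38 and 12.29 in control cells. That call was lost with arrays centred on the median (-0.1, adjusted p = 0.125) and with the mean of all its probe sets (-0.04, 0.82), the other probe sets giving -0.03 and 0.07.

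The gene that became higher between 24 and 48 h was Derl2, a membrane component of degradation. It had 9.49, 9.66, 9.66, 9.73 and 9.7 after 24 h and 9.9, 9.96, 9.84, 9.85 and 9.76 after 48 h, against 9.33, 9.26, 9.35, 9.37 and 9.38 in control cells. All stretched arrays were above all control arrays, and the differences were 0.31 ± 0.053 at 24 h (adjusted p = 0.000738) and 0.52 ± 0.053 at 48 h (1.44-fold, adjusted p = 1.4e-06). A second, dimmer probe set of Derl2 gave 0 ± 0.074 at 48 h (adjusted p = 0.99). Dnajc3 remained higher, with 9.36, 9.43, 9.41, 9.36 and 9.34 after 48 h and a difference of 0.46 ± 0.077 (1.37-fold, adjusted p = 0.000201). Sec61b had 11.33, 11.32, 11.3, 11.32 and 11.38 after 48 h, against 10.92, 11.08, 10.93, 11.21 and 10.99 in control cells, a difference of 0.31 ± 0.066 with no overlap (adjusted p = 0.00174). Creld2, Sec61a1, Ufd1, Edem1, Dnajb11, Os9 and Ero1a were higher by 0.2 to 0.27. With the mean of all probe sets, Sec61a1 (0.12, adjusted p = 0.244), Os9 (0.14, 0.0997) and Ero1a (0.17, 0.255) were not called at 48 h. The calls of Creld2, Os9 and Ero1a did not hold without every single array (adjusted p up to 0.0629 without control replicate 1, 0.0512 without control replicate 3 and 0.0921 without the fifth 48 h array).

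Among the sensors and their transcription factors, Atf6 alone was called against control in the main limma fit, on its brightest probe set. It had 10.13, 10.26, 9.97, 10.15 and 10.21 after 24 h and 10.11, 10.23, 10.26, 9.95 and 10.23 after 48 h, against 9.94, 9.93, 9.92, 9.68 and 9.93 in control cells. Every stretched array was above every control array, with differences of 0.27 ± 0.074 at 24 h and 0.28 ± 0.074 at 48 h (adjusted p = 0.0186 and 0.00789). A second, much dimmer probe set of Atf6 gave 0.16 and 0.15 at these times and was not called (SE 0.075 each, adjusted p = 0.161 and 0.138 in limma). In the first set Atf6 lay between 9.63 and 10.02 on the stretched arrays and between 9.75 and 10.06 on the control arrays, and it differed by -0.06, -0.05 and 0.02 (SE 0.075), none of them called. Xbp1 had 11.23, 11.18, 11.23, 11.24 and 11.19 after 1 h and 11.07, 11.04, 11.09, 11.02 and 11.09 after 12 h, against 11.17, 11.15, 11.17, 11.12 and 11.17 in control cells. The 12 h arrays were all below the control arrays, but the difference of -0.1 ± 0.037 was not called (adjusted p = 0.0511). This was the smallest adjusted p among the uncalled genes at 12 h. More genes were called lower at 12 h under several of the alternatives given below, so Xbp1 was borderline there. The decrease of Xbp1 between 1 and 12 h was called (-0.15 ± 0.037, adjusted p = 0.00432). In the second set Xbp1 had 11.19, 11.24, 11.19, 11.24 and 11.32 after 24 h and 11.05, 11.17, 10.91, 11.17 and 11.16 after 48 h, against 11.17, 11.17, 11.27, 11.02 and 11.21 in control cells. These groups overlapped, and Xbp1 was 0.07 and -0.08 from control at 24 and 48 h (SE 0.061, adjusted p = 0.518 and 0.371). Eif2ak3 had 7.49, 7.47, 7.45, 7.43 and 7.38 after 12 h, against 7.36, 7.31, 7.29, 7.31 and 7.3 in control cells, a difference of 0.13 ± 0.054 that was not called (adjusted p = 0.0684, or 0.0329 with each array centred on its median). Between 1 and 12 h Eif2ak3 became higher (0.2 ± 0.054, adjusted p = 0.011). It had 7.38, 7.45, 7.5, 7.54 and 7.59 after 24 h and 7.71, 7.48, 7.54, 7.67 and 7.52 after 48 h, against 7.43, 7.49, 7.24, 7.6 and 7.5 in control cells, with overlap at both times and no call. These probe sets give total mRNA, and neither splicing of Xbp1, cleavage of ATF6 nor phosphorylation of PERK was measured.

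P4hb and Ppib, the protein disulfide isomerase and cyclophilin that are also needed for collagen, and Pdia3, Uggt1 and Syvn1 were not called at any time. Their differences lay between -0.09 and 0.04 for P4hb and between -0.05 and 0.03 for Ppib, with SEs of 0.034 to 0.049. Uggt1, the sensor of glycoprotein folding, was the most scattered (SD up to 0.42 within the 24 h group), and Syvn1, the HRD1 ubiquitin ligase, was 0.32 ± 0.147 above control at 48 h (adjusted p = 0.112).

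The PERK arm was followed through 12 genes chosen as ATF4, its partners and its targets, all of them measured. At 1, 4, 12, 24 and 48 h, 5, 7, 6, 8 and 5 of them were higher and 0, 1, 1, 0 and 0 lower, with median differences of 0.13, 0.21, 0.17, 0.27 and 0.2. Of all genes, 8.24%, 17.1%, 19.4%, 13.5% and 22.5% were higher and 8.3%, 19.2%, 19.7%, 10.1% and 18.4% lower at these times. Atf4 had 12.29, 12.32, 12.3, 12.28 and 12.35 after 1 h, against 11.85, 11.82, 11.8, 11.77 and 12.03 in control cells. It was thus higher (0.45 ± 0.046, 1.37-fold, adjusted p = 5.38e-07) at the time at which 11 of the 34 genes were lower. Ppp1r15a (GADD34), the phosphatase subunit that reverses the PERK signal, was higher at 1, 4, 12, 24 and 48 h by 0.91, 0.59, 0.63, 0.65 and 0.95, at least 1.51-fold each time. Asns, asparagine synthetase, was higher by 0.26, 0.32, 0.24, 0.58 and 0.66. Atf3 had 10.21, 10.3, 10.04, 10.2 and 10.39 after 1 h, against 7.01, 7.06, 7.02, 7.3 and 7.2 in control cells, which is 8.63-fold (3.11 ± 0.073), and it is also an immediate early gene. Ddit3 (CHOP), the death-related factor of this arm, went the other way at 4 h, with 8.58, 8.58, 8.54, 8.49 and 8.54 after 4 h, against 8.68, 8.88, 8.67, 8.64 and 8.71 in control cells. It was lower by 0.17 ± 0.05 at 4 h (adjusted p = 0.0131), higher by 0.22 ± 0.05 at 12 h (0.0018) and not called at 1, 24 and 48 h. Nupr1 was higher at 4 h (0.15) and lower at 12 h (-0.21). ATF4 and its targets are also controlled by other kinases than PERK, and which of them acted was not measured.

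**Figure D4:**
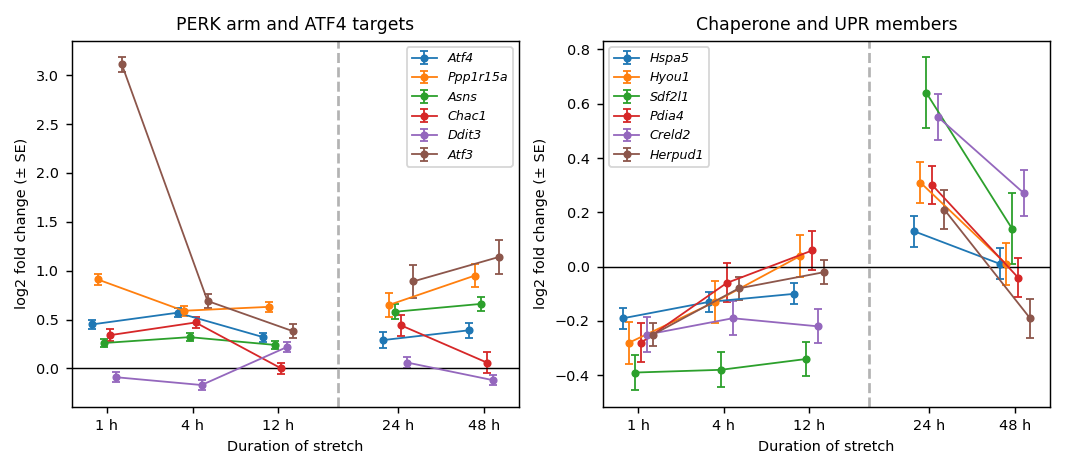
Log2 fold change (stretched minus control of the same set, points, with SE as bars) of 6 genes of the PERK arm on the left and 6 of the 34 ER genes on the right, against the duration of stretch, with the 2 sets separated by the dashed line. At 1 h Atf4, Ppp1r15a, Asns, Chac1 and Atf3 lie above 0, between 0.26 and 3.11. The 6 ER genes on the right are all among the 11 called lower at 1 h, so their place below 0 follows from which genes are shown. The median of all 34 genes at 1 h was -0.05, and 23 of them were not called. The vertical scales of the panels differ.

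Genes with an ERSE or ERSE-II in the promoter window were compared with those without one as a description, without a test of the difference. At 1, 4, 12, 24 and 48 h, 0, 0, 2, 6 and 3 of the 11 with such an element were higher and 7, 4, 4, 0 and 2 lower. Of the 15 without, 0, 4, 6, 5 and 4 were higher and 3, 1, 1, 0 and 0 lower. Of all genes, 8.24%, 17.1%, 19.4%, 13.5% and 22.5% were higher and 8.3%, 19.2%, 19.7%, 10.1% and 18.4% lower. The median differences were -0.19, -0.08, -0.02, 0.19 and 0.01 with an element. They were 0.01, 0.05, 0.13, 0.14 and 0.09 without one. Several lower calls with an element were not firm. Canx had no single direction over its probe sets. The calls of Hsp90b1, Calr and Ero1b at 1 h, Hspa5 at 4 and 12 h, Creld2 at 4 h and Herpud1 at 48 h were each lost under some alternative. Calls without an element were lost too, such as those of Sec61b at 4 and 12 h. Among the genes whose promoters are printed above, Hspa5 and Creld2 were both lower at 1 h and Creld2 higher at 24 h, while Ero1b fell further at 4 and 12 h (to 7.66 and 7.64, against 8.15 in control cells) and was not called at 24 h (0.13 ± 0.105, adjusted p = 0.438). Sdf2l1, which changed most at 1 and 24 h, held neither element in its window.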

How the data were processed

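RNA of the cultures was measured on 35 Affymetrix rat expression arrays. The deposited values are linear intensities of probe sets, which the authors had summarised and normalized by RMA (Robust Multichip Average) with the GeneSpring GX software. RMA compresses differences of dim probe sets. The sets were compared only within themselves, and the letters a and b in the control titles were read as the controls of the first and the second set, as the methods describe these sets.

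The values were taken to log2. In 427 probe sets, 471 values that a spreadsheet had turned into dates were read back, none in a probe set of the 34 genes. After 57 array controls were left out, limma 3.58.1 (R 4.3.3) was fitted to each set with 1 mean per group and moderated variances, and p-values were adjusted by Benjamini-Hochberg over 31042 probe sets per comparison. Median residual SDs were 0.114 and 0.12 (16 and 12 degrees of freedom), and precision is limited by the number of arrays. The fit was tested on simulated data.

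The gene list, the pathway and marker lists and the tests were chosen with earlier results of these data known. Values per array are given for the called members with the 4 largest differences in each direction at each time and for the sensors, and members outside this rule were chosen after their values were seen. Of each other list, up to 4 called genes with the largest changes are named. Promoters were taken from RefSeq, and protein sequences, including the ER retrieval signal, were not analysed here. Alternatives changed the test, samples, scaling, filters, probe set choice and the arrays left out.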

Additional observations from a re-analysis of the deposited data

Results flagged for a closer look

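Among the 34 genes and 7 groups, 238 sets of 5 arrays were examined for an array far from the others (gap to the nearest array over the range above 0.71), and 21 were found, where chance gives about 1 in 20, or 11.9. The first 24 h array was the lowest for Hspa5 (12.73), Dnajb11 (10.76), Sdf2l1 (9.03) and Creld2 (9.66). The second 4 h array was the lowest for Hspa5 (12.59) and Pdia6 (11.96) and the highest for Ero1a (9.26) and Eif2ak3 (7.69), and the first 4 h array was the lowest for Sec61a1 (10.86). The fifth 1 h array was the lowest for Pdia3 (11.68) and Ero1a (8.76) and the highest for Selenos (11.03). In the control of the first set, replicate 4 was the lowest for Pdia6 (12.1) and Ppib (12.4), replicate 5 for Os9 (8.3), and replicate 1 was the highest for Eif2ak3 (7.36). In the control of the second set, replicate 4 was the lowest for Pdia4 (9.48) and Atf6 (9.68), replicate 5 for Hspa5 (12.75), replicate 1 for Hsp90b1 (12.34) and replicate 3 for Os9 (8.1).

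Between neighbouring times of a set, 20 differences passed an adjusted p of 0.05 in limma. From 1 to 4 h they were Hsp90b1 (0.21), Calr (0.13), Pdia4 (0.23), Manf (0.16), Eif2ak3 (0.19), Herpud1 (0.17), Ufd1 (0.14), Sec61a1 (0.16) and Ero1b (-0.3). From 4 to 12 h they were Dnajb9 (0.27), Ero1a (0.21), Xbp1 (-0.13) and Sec61a1 (-0.13). From 24 to 48 h they were Derl2 (0.21), Hyou1 (-0.3), Sdf2l1 (-0.49), Calr (-0.22), Pdia4 (-0.35), Manf (-0.21) and Herpud1 (-0.4). Each value is the later minus the earlier mean on the log2 scale.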

How the results depend on the processing

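Of 65 calls among the 34 genes over the 5 times, 36 were kept under each of the 11 alternatives run on single genes, where it gave a value for them, and without any 1 of the 35 arrays; 19 were lost without at least 1 array and 21 were lost or turned direction under at least 1 other alternative. With each array centred on its median, 7 genes were lower at 1 h. The 4 h comparison then had 6 higher genes with 4 lower ones, the 12 h comparison 14 with 3, the 24 h comparison 15 with 0, and the 48 h comparison 13 with 0. At 12 h, 8 were lower in the one-way model without moderation, after quantile normalization, without the dimmest 30% of probe sets, with 1 probe set per gene, with array weights and with a variance trend. With the stretched group and its control alone, 4 were lower at 4 h. At 48 h, 1 was lower in the one-way model, with the stretched group and its control alone, with the mean of all probe sets and with array weights. At 1.5-fold the counts were 0, except 1 higher at 24 h. Canx at 4 h (0.11) and 12 h (0.27) and Derl1 at 4 h (0.06) turned direction with the mean of all probe sets. Leaving out 1 array gave 0 to 0 higher genes with 7 to 11 lower ones after 1 h of stretch, 4 to 7 with 5 to 8 after 4 h, 8 to 11 with 4 to 7 after 12 h, 12 to 16 with 0 to 0 after 24 h, and 8 to 12 with 1 to 2 after 48 h. The cause was not tested.

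Arrays with the same replicate number did not deviate together throughout (correlations of -0.297 to 0.339 in the first set and -0.393 to 0.539 in the second; best with their own number in 5 of 30 and 2 of 15 pairs). Between the 24 h arrays and their control all 5 correlations were above 0 (0.161, 0.174, 0.539, 0.521 and 0.035, against means of -0.161 to 0.002 with other numbers). With a replicate block, 0 genes were higher with 9 lower after 1 h, 6 with 7 after 4 h, 9 with 4 after 12 h, 14 with 0 after 24 h, and 10 with 2 after 48 h.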

Other observations

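Of all genes, 8.24%, 17.1%, 19.4%, 13.5% and 22.5% were called higher and 8.3%, 19.2%, 19.7%, 10.1% and 18.4% lower at 1, 4, 12, 24 and 48 h, and several counts below lie near these shares. Beyond the 34 genes, the enzymes and chaperones that act on collagen in the ER were measured. Of 7 such genes, 2, 5, 4, 4 and 4 were higher and 0, 0, 1, 1 and 1 lower at 1, 4, 12, 24 and 48 h. Plod2, a lysyl hydroxylase of collagen, had 11.76, 11.7, 11.73, 11.75 and 11.74 after 48 h, against 11.06, 11.06, 11.05, 11.13 and 11.05 in control cells, and was higher by 0.67 ± 0.038 (1.59-fold, adjusted p = 6.5e-09 in limma). It was above control on every stretched array at all 5 times. P4ha3, a prolyl hydroxylase subunit, was higher by 0.81 ± 0.104 at 48 h (1.75-fold, adjusted p = 1.51e-05), and P4ha2, another subunit, was lower by 0.51 ± 0.062 (9.96 against 10.47 on average, 0.701-fold, adjusted p = 7.71e-06). Fibroblast markers were lower at 48 h in 7 of 10 genes, and their part in these values was not tested.

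Of the 17 measured genes of ER exit and retrieval, 2, 7, 6, 0 and 4 were called higher in limma at 1, 4, 12, 24 and 48 h. Mcfd2, a cargo receptor subunit, was higher by 0.51 ± 0.041 at 4 h (1.42-fold, adjusted p = 8.43e-09). Tmed2, a cargo receptor of the early secretory pathway, was higher by 0.29 ± 0.054 at 4 h and 0.35 ± 0.054 at 12 h (adjusted p = 0.000347 and 3.63e-05), and 0 ± 0.063 at 24 h (0.996). Of 19 measured genes of the translocon, signal recognition and signal peptidase, 1, 5, 6, 1 and 3 were higher and 0, 0, 0, 1 and 2 lower, led by Ssr1 (0.34 and 0.35 at 4 and 12 h, SE 0.042).

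Of 14 further disulfide isomerases and oxidases, 2, 4, 4, 4 and 5 were higher and 0, 1, 2, 0 and 2 lower. Erp29, a chaperone without isomerase activity, was higher by 0.51 ± 0.051 at 24 h (1.43-fold, adjusted p = 9.68e-06), and Txndc5 by 0.42 ± 0.095 at 12 h (0.00146). Of 18 further genes of ER-associated degradation, 0, 6, 7, 2 and 6 were higher and 1, 4, 4, 1 and 2 lower. Erlec1, a lectin of degradation, was lower by 0.46 ± 0.043 at 12 h (0.726-fold, adjusted p = 5.12e-08) and was lower also at 4, 24 and 48 h. Of 7 ER prolyl isomerases, 0, 2, 1, 0 and 1 were higher and 1, 1, 2, 1 and 2 lower, and Fkbp9 was lower at all 5 times, by 0.13 at 1 h and 0.38 at 48 h. Of 16 genes of N-glycosylation and glucose trimming, 1, 6, 6, 4 and 6 were higher and 0, 1, 0, 0 and 1 lower. Of 12 further sensors and activators, 1, 5, 6, 3 and 4 were higher and 0, 1, 2, 1 and 1 lower; Creb3l2 was higher by 0.56 ± 0.087 at 48 h (adjusted p = 8.9e-05) and Mbtps1, the protease that cleaves ATF6, was lower by 0.34 ± 0.056 (0.000161).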
